A study of Mus musculus with 16 samples.

Results

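Heat shock proteins are molecular chaperones that hold, refold or hand on unfolded proteins. HSP70 proteins bind exposed hydrophobic stretches and cycle between ATP and ADP with the help of J-domain proteins and exchange factors, HSP90 matures signalling proteins that include the steroid hormone receptors, and the HSP60 and HSP10 ring folds proteins inside mitochondria. Heat shock factor 1 switches on the inducible members through repeats of the heat shock element GAANNTTC, while the chaperone of the endoplasmic reticulum, Hspa5 (BiP), answers to the unfolded protein response. In the vessel wall they are known from smooth muscle, endothelium and the macrophages of atherosclerotic plaque.

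The 10 members described here were Hspa1a, Hspa1b, Hsph1, Hspa8, Hsp90aa1, Hspb1, Dnajb1, Hspa5, Hspd1 and Hspe1, taken by gene name from the arrays among 28482 genes in all. They were covered by 15 of 41174 probes, all of them well above background on all 16 arrays, and the brightest probe stood for a gene. All 10 members passed the filter on dim probes.

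Aortas came from female C57BL/6 mice that lacked ApoE, had been ovariectomized at 4 to 5 weeks of age and ate a high-fat Western-type diet, in the placebo groups too. Subcutaneous pellets made to release for 90 days held the progestin medroxyprogesterone acetate (MPA), the progestin norethisterone acetate (NET-A) or placebo, and tissue was taken after 78 to 90 days. The doses are not given in the sources used here. There were 4 groups of 4 one-colour arrays: MPA with a placebo group whose titles carry the letter M, and NET-A with a placebo group whose titles carry the letter N, called placebo M and placebo N below. Slides and initial tie each placebo group to its progestin. Nothing in the labels says that each sample came from its own mouse, so the p-values speak for the spread of these samples, which may be technical. In whole aorta, fewer cells of a type and less RNA per cell cannot be told apart.

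The share of spots well above background ran from 46.3% to 60.6% over the arrays of MPA and its placebo, lowest on MPA replicate 2. It ran from 62.3% to 78.5% over those of NET-A and its placebo, lowest on NET-A replicate 1. No spot was saturated, and the number of arrays limits the precision. All 8 listed markers of vascular smooth muscle and all 8 of endothelium were well above background on all 16 arrays. Slides and scanner software differed between the experiments, so levels were compared only within an experiment. Levels below are log2 signals minus the array's 75th percentile, so that a difference of 1 is a doubling of signal.

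The sequences that bear most on reading the values are those of the inducible HSP70 pair, because the genes are near copies on chromosome 17. The Hspa1a probes (mm9, minus strand) span chr17:35106766-35106825 and chr17:35106796-35106855, and share the 30 bases printed first. The Hspa1b probes, at chr17:35094200-35094259 and chr17:35095608-35095667 (mm9, minus strand), each carry accessions of Hspa1a as well as of Hspa1b in the array files, so their signal cannot be given to Hspa1b alone. Both are shown whole, in the order of those coordinates.
Hspa1a, bases common to its probes: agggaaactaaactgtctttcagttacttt
Hspa1b, brightest probe: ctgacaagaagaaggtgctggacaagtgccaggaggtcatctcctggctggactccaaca
Hspa1b, dimmer probe: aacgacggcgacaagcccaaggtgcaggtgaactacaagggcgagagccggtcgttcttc

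The promoters shown are those of Hspa1a, which had the smallest p-value of the members with MPA, of its near copy Hspa1b, and of Hsph1 and Hspa5, which had the smallest p-values of the members with NET-A. They are the 250 bases before the RefSeq transcript start (GRCm38.p6), with matches in capitals to the heat shock element as GAANNTTC or TTCNNGAA, or to the endoplasmic reticulum stress element, CCAAT and CCACG with 9 bases between them, searched on both strands. The positions are chr17:34972157-34972406 (minus) for Hspa1a, chr17:34959239-34959488 (minus) for Hspa1b, chr5:149636337-149636586 (minus) for Hsph1 and chr2:34771840-34772089 (plus) for Hspa5.
Hspa1a: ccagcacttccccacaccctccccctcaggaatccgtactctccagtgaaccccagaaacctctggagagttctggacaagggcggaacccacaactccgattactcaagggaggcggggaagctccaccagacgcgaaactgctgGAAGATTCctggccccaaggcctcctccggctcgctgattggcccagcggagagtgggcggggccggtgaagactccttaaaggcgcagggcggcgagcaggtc
Hspa1b: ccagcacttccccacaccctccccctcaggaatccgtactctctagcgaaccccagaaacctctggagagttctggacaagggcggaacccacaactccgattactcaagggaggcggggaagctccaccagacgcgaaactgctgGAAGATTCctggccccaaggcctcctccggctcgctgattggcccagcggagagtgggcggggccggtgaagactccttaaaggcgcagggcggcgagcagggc
Hsph1: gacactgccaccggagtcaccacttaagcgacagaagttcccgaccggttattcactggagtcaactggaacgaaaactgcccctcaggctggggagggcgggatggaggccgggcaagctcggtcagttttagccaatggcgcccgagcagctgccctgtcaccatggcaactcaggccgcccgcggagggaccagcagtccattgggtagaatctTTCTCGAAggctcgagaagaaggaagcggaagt
Hspa5: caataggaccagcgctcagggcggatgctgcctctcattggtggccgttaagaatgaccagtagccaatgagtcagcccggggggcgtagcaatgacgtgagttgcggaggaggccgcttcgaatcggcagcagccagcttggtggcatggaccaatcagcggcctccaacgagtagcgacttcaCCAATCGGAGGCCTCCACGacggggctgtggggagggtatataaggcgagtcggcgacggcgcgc

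The HSP70 pair shared 247 of these 250 bases. Counted from 1 at the 5′ end of the printed stretch, with Hspa1a first, the differences were C44T, T47C and T249G, and the match GAAGATTC began 104 bases before the start in both. Among 32851 RefSeq promoters of this length, 6.69% held GAANNTTC, 7.17% held TTCNNGAA and 0.113% held the endoplasmic reticulum stress element. Of the other members, Hspb1 had GAAGTTTC and GAACCTTC, beginning 117 and 97 bases before its start. Hspd1 and Hspe1 face away from each other on chromosome 1 and share a longer element, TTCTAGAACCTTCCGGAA read on the strand of Hspe1, at chr1:55088059-55088076. An element of 3 such units, GAANNTTC and TTCNNGAA sharing their TTC, stood in 0.466% of promoters. The promoters listed for Dnajb1 held none of these motifs. A match is a description of the letters and says nothing of what binds there. Hspa8 and Hsp90aa1 were not matched in the promoter table.

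No member, and no other gene, passed limma's test after Benjamini-Hochberg adjustment at 0.05 in either comparison or in the difference between them. Before adjustment, a p under 0.05 was given to 967 genes with MPA, 1307 with NET-A and 1052 for the difference. The smallest adjusted p over all genes was 0.646 with MPA (15371 genes), 0.321 with NET-A (21182 genes) and 0.175 for the difference (15241 genes). All directions below are therefore those of group means that were not called, and values are given as mean differences ± standard error with 4 arrays a group.

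With MPA, the mean of every member lay below placebo M, 10 of 10, with a median difference of -0.42 and a range from -1.21 to -0.088. Over all genes tested, 49.5% lay below 0 and the median was 0.0030. At an unadjusted p under 0.05 there were 3 members, Hspa1a, Hsph1 and Dnajb1, where 2.55% of all genes were lower and 3.74% higher at that bound. Only Hspa1a had groups that did not overlap, in the lower direction, against 1.51% of all genes lower and 2.52% higher. Hsph1 joined it after normexp background correction, after quantile normalization and with the authors' series table. The share of all genes without overlap was not counted for those settings. Without placebo M replicate 2, or without MPA replicate 4, the bound was passed by 1 member. The shares of all genes lower at that bound there were 1.6004% and 2.0233%, in that order.

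With NET-A, 9 of 10 members lay below placebo N, with a median difference of -0.31 and a range from -0.68 to 0.015, where 54.3% of all genes lay below 0 and the median was -0.023. At an unadjusted p under 0.05 there were 4 members, Hsph1, Hspa8, Hsp90aa1 and Hspa5, against 3.66% of all genes lower and 2.51% higher at that bound. The same 4 had groups that did not overlap, all lower, against 2.30% of all genes lower and 1.58% higher. The count of members below placebo N was 6 with the array median in place of the 75th percentile and 6 after normexp background correction. It was also 6 without placebo N replicate 2, without placebo N replicate 4 or without NET-A replicate 1, where the members' median was -0.17. The bound was passed by 2 members without NET-A replicate 1 or placebo N replicate 1, against 3.32% and 3.21% of all genes lower. Of the groups that did not overlap, Hsph1 and Hspa5 did so with the array median and Hspa5 alone after normexp.

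**Figure D1:**
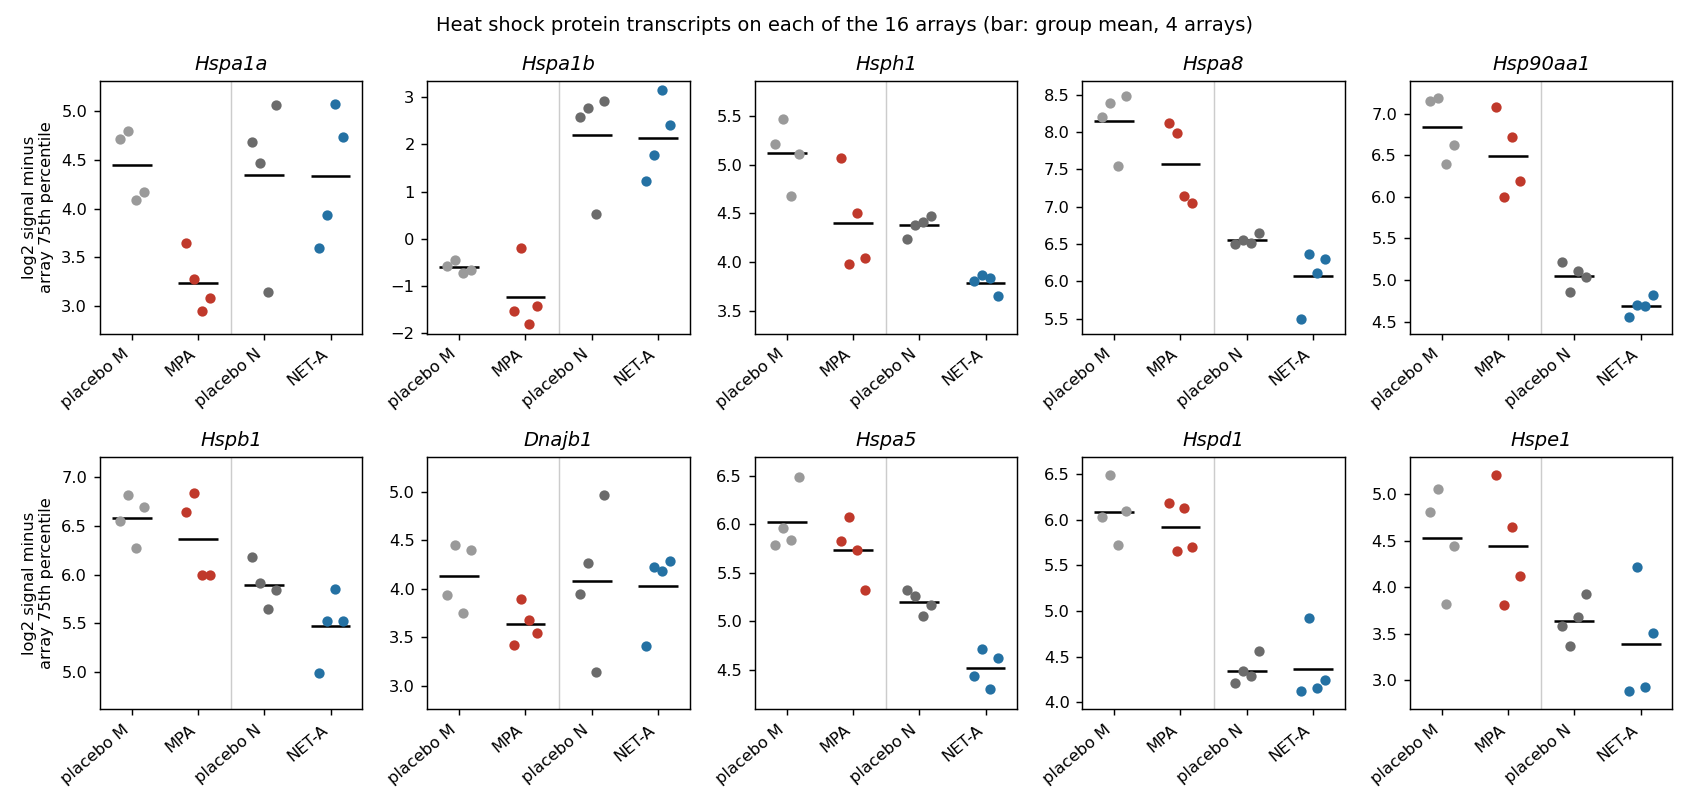
Log2 signal minus the array's 75th percentile (vertical axis) of each member's brightest probe on the 16 arrays, by group (points: arrays; bars: means of 4 arrays; the vertical axes differ between panels). Hspa1a is lower on all 4 MPA arrays than on any placebo M array, as are 1.51% of all genes. Hsph1, Hspa8, Hsp90aa1 and Hspa5 are lower on all 4 NET-A arrays than on any placebo N array, as are 2.30% of all genes.

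The stress-inducible HSP70 Hspa1a, which is low in unstressed cells and rises with misfolded protein, gave the greatest difference of the members under MPA. It read 4.72, 4.80, 4.08 and 4.17 on placebo M replicates 1 to 4 and 3.65, 3.27, 2.94 and 3.08 on MPA replicates 1 to 4. The lowest placebo M array thus lay above the highest MPA array. The difference was -1.21 ± 0.23, a ratio of 0.433, with an adjusted p of 0.646 (limma) and the 5th smallest p of 15371 genes. It was -1.30 within slide 1 and -1.11 within slide 2, each with 2 arrays a group, and the dimmer, overlapping probe gave -0.96 ± 0.19.

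Under NET-A, Hspa1a varied more within each group than between the groups. Placebo N replicates read 4.69, 4.47, 3.14 and 5.06, and NET-A replicates 3.59, 3.93, 5.08 and 4.74. The groups overlapped over nearly their whole range, and the lowest array of the 8 was placebo N replicate 3. The difference was -0.0071 ± 0.47 (95% interval -1.09 to 1.08; adjusted p = 1.00, limma). It was -1.10 on slide 3 and 0.61 on slide 4, with 1 array a group each and no test, and 0.23 within slide 5. Without placebo N replicate 3 it was -0.41, and without NET-A replicate 1 it was 0.24.

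The MPA difference of Hspa1a lay below its NET-A difference by -1.20 ± 0.54 (95% interval -2.35 to -0.051). This was the only member with an unadjusted p under 0.05 for the difference, where 2.43% of all genes were lower at that bound, and its adjusted p was 0.702 (limma). Without placebo N replicate 3 the value was -0.80. The dimmer, overlapping probe gave -0.95 ± 0.54, with a 95% interval from -2.10 to 0.20. No member was lower at an unadjusted p under 0.05 after quantile normalization, with the authors' series table or with the replicate block. The shares of all genes there were 2.89%, 2.70% and 2.11%, in that order.

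The second inducible HSP70, Hspa1b, as far as its probes can be told from Hspa1a, was more variable. On its brightest probe placebo M arrays read -0.58, -0.45, -0.72 and -0.65 and MPA arrays -1.52, -0.18, -1.80 and -1.41. MPA replicate 2 was the highest of these 8 arrays, and the other 3 MPA arrays were the lowest. The difference was -0.63 ± 0.32 (adjusted p = 0.825, limma), or -0.98 without MPA replicate 2. The dimmer probe, on which MPA replicate 2 lay below 3 of the 4 placebo M arrays, gave -0.61 ± 0.22.

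In the NET-A experiment the brightest Hspa1b probe read 2.57, 2.78, 0.53 and 2.91 with placebo and 1.23, 1.78, 3.14 and 2.40 with NET-A. As with Hspa1a, placebo N replicate 3 was lowest and NET-A replicate 3 highest of the 8 arrays. The difference was -0.059 ± 0.60, with a 95% interval from -1.44 to 1.32. The dimmer probe gave -0.096 ± 0.63.

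Dnajb1 is the J-domain protein that stimulates the ATPase of inducible HSP70. Its placebo M arrays read 3.94, 4.45, 3.75 and 4.40 and its MPA arrays 3.42, 3.89, 3.68 and 3.55. The groups met only where MPA replicate 2 passed placebo M replicate 3, and on the dimmer probe they did not overlap. The brightest probe gave -0.50 ± 0.20 (adjusted p = 0.752, limma) and the dimmer one -0.36 ± 0.14. Under NET-A the arrays read 3.95, 4.26, 3.15 and 4.97 with placebo and 3.41, 4.22, 4.18 and 4.28 with the progestin. Placebo N replicate 3 was again lowest, and the difference was -0.058 ± 0.38 with a 95% interval from -0.93 to 0.81.

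Hsph1, the HSP110 protein that exchanges nucleotide on HSP70, lay lower under each progestin. With MPA it read 5.21, 5.48, 4.68 and 5.11 on placebo and 5.07, 3.98, 4.51 and 4.05 on treated arrays. MPA replicate 1 stayed within the placebo range and the other 3 lay below it. The difference was -0.72 ± 0.27, a ratio of 0.608 (adjusted p = 0.752, limma). It was -0.82 within slide 1 and -0.62 within slide 2.

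With NET-A, Hsph1 read 4.24, 4.38, 4.42 and 4.48 on placebo and 3.81, 3.86, 3.84 and 3.65 on treated arrays. The groups were tight and apart, with SDs of 0.10 in each. The difference was -0.59 ± 0.11, a ratio of 0.665 (adjusted p = 0.592, limma), and ranked 21st by p among 21182 genes. Every slide gave the same sign, with -0.43 on slide 3, -0.54 on slide 4 and -0.69 on slide 5. The responses to the progestins differed by -0.13 ± 0.30, with a 95% interval from -0.77 to 0.51 that leaves a sizeable difference either way possible.

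Hspa8 is the constitutive HSP70 (Hsc70) of every cell. Its placebo M arrays read 8.20, 8.39, 7.54 and 8.48 and its MPA arrays 8.12, 7.99, 7.14 and 7.05. Only placebo M replicate 3 fell within the MPA range, and the difference was -0.58 ± 0.31 (adjusted p = 0.833, limma), or -0.24 within slide 1 and -0.92 within slide 2. Placebo N arrays read 6.50, 6.56, 6.52 and 6.65, closer together than those of any other member, and NET-A arrays 5.50, 6.37, 6.12 and 6.30. All NET-A arrays were below all placebo N arrays, NET-A replicate 1 farthest, with a difference of -0.49 ± 0.20 (adjusted p = 0.788, limma). It was -0.30 without NET-A replicate 1, and the groups overlapped with the array median and after normexp. On the dimmer probe the values were -0.58 ± 0.25 with MPA and -0.39 ± 0.25 with NET-A, where the groups overlapped.

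Hsp90aa1, the inducible cytosolic HSP90, read 7.16, 7.19, 6.40 and 6.63 in placebo M and 7.08, 6.00, 6.72 and 6.19 with MPA, an overlap of most arrays. In the NET-A experiment it read 5.22, 4.85, 5.11 and 5.04 with placebo and 4.56, 4.70, 4.68 and 4.82 with the progestin, where the groups were apart by a narrow margin. The differences were -0.35 ± 0.28 with MPA and -0.36 ± 0.12 with NET-A (adjusted p = 0.866 and 0.695, limma). Their own difference was 0.017 ± 0.32, with a 95% interval from -0.66 to 0.69. The MPA value ran from -0.54 without MPA replicate 1 to -0.18 without MPA replicate 2, and was -0.64 within slide 1, -0.059 within slide 2 and -0.74 after normexp.

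The small heat shock protein Hspb1, which binds unfolding proteins without ATP and is abundant in muscle, gave -0.22 ± 0.24 with MPA and -0.42 ± 0.20 with NET-A. It ranged from 6.27 to 6.82 in placebo M and from 5.99 to 6.84 with MPA. Placebo N ranged from 5.65 to 6.18 and NET-A from 4.99 to 5.86, with NET-A replicate 1 lowest. Groups overlapped in both experiments, and the MPA difference was 0.055 within slide 1 and -0.49 within slide 2. The NET-A difference was -0.26 without NET-A replicate 1.

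Hspa5, the HSP70 of the endoplasmic reticulum, separated from placebo under NET-A. Placebo N arrays read 5.32, 5.26, 5.06 and 5.17 and NET-A arrays 4.44, 4.72, 4.30 and 4.62. No NET-A array reached the lowest placebo array. The difference was -0.68 ± 0.13, a ratio of 0.623 and the greatest of the members under NET-A (adjusted p = 0.592, limma), ranking 29th by p among 21182 genes. It was -0.88 on slide 3, -0.96 on slide 4 and -0.45 within slide 5.

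With MPA, Hspa5 read 5.79, 5.97, 5.83 and 6.49 on placebo and 5.83, 6.07, 5.73 and 5.33 on treated arrays. The groups overlapped, with placebo M replicate 4 highest and MPA replicate 4 lowest. The difference was -0.28 ± 0.22 (adjusted p = 0.859, limma), made of 0.073 within slide 1 and -0.63 within slide 2. The MPA difference was above the NET-A difference by 0.40 ± 0.25, with a 95% interval from -0.14 to 0.94 (adjusted p = 0.820, limma), and this turned to -0.24 after normexp background correction.

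On the brightest probe of each member, the mitochondrial partners Hspd1 (HSP60) and Hspe1 (HSP10) lay nearest to 0 with MPA. The dimmer probe of Hspd1 lay farther from 0, at -0.36 ± 0.23 with MPA, and gave 0.097 ± 0.29 with NET-A. The brightest probe of Hspd1 gave -0.16 ± 0.21 with MPA and 0.015 ± 0.20 with NET-A. Its 95% intervals ran from -0.63 to 0.31 and from -0.44 to 0.47. Hspe1 gave -0.088 ± 0.35 and -0.26 ± 0.30, with intervals from -0.89 to 0.71 and from -0.94 to 0.43. In placebo M, Hspd1 ranged from 5.72 to 6.49 and Hspe1 from 3.82 to 5.06. In the NET-A group both were highest on replicate 2, at 4.92 and 4.21. The mean of 8 brown adipocyte markers, all well above background on all arrays and centred on the experiment, was 1.21 on that array, from -0.80 to -0.24 on the other NET-A arrays and from -0.013 to 0.33 in placebo N, and its part in these values was not tested. These intervals do not show that the pair was unaffected.

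**Figure D2:**
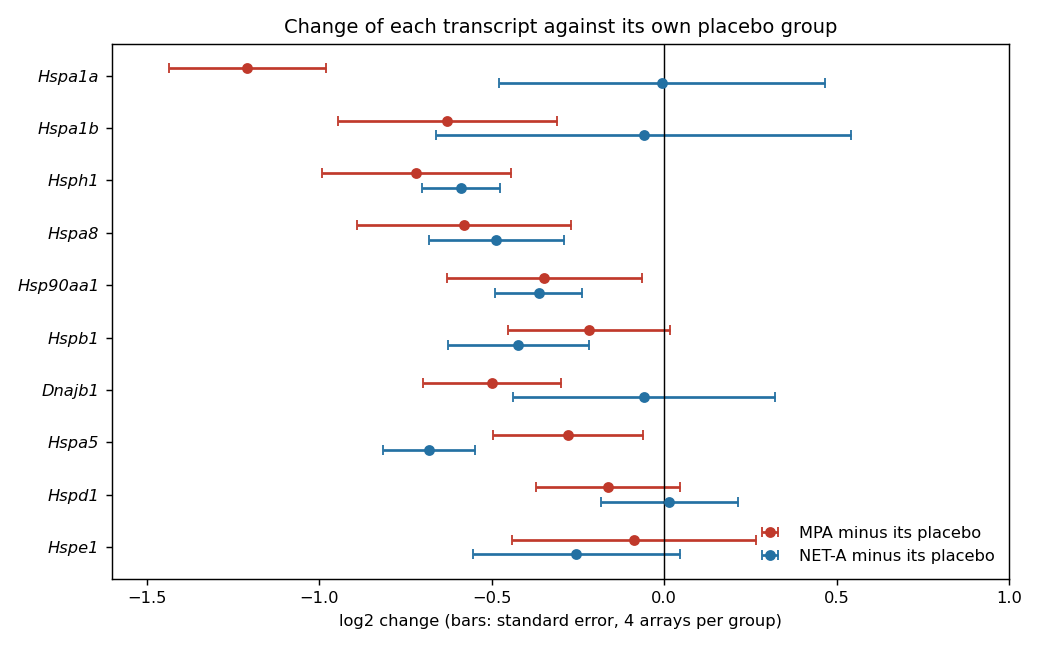
Log2 difference from the own placebo group (horizontal axis; points: limma estimates, bars: standard errors, 4 arrays per group) for each member, MPA in red and NET-A in blue. The standard errors of Hspa1a, Hspa1b and Dnajb1 under NET-A, 0.47, 0.60 and 0.38, are the widest there.

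The inducible trio Hspa1a, Hspa1b and Dnajb1 varied together over the arrays of the NET-A experiment. All 3 were lowest of their group on placebo N replicate 3 and highest on placebo N replicate 4, and lowest of the treated group on NET-A replicate 1. Without placebo N replicate 3 their NET-A differences were -0.41, -0.62 and -0.37, and without placebo N replicate 4 they were 0.23, 0.18 and 0.24. Leaving out a single array thus changed the sign of all 3 values. The signal of the Hspa1b probes cannot be given to Hspa1b alone, so its likeness to Hspa1a may be partly built in. Hspb1 and Hspa5 were also lowest of their group on placebo N replicate 3, at 5.65 and 5.06, and so was the dimmer probe of Hspa8, at 3.87 against 4.23 to 4.35. Hsph1, Hsp90aa1 and the brightest probe of Hspa8 were not.

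Likeness to Hspa1a was measured as the root mean square difference of log2 levels over the 16 arrays, after each gene was centred on the mean of its experiment. Among 14514 genes measured on all arrays, the nearest that are not members included Dnajb4 (0.35), a J-domain partner of HSP70, and Bag3 (0.38), an HSP70 exchange factor. They also included the probe A_52_P1037106 (0.40), which has no gene name here, and Gfpt2 (0.41), an enzyme of the hexosamine pathway. Of the members, Hspa1b, whose signal cannot be told from Hspa1a with certainty, ranked 10th and Dnajb1 13th. Hspb1 ranked 190th, Hspa8 244th and Hsph1 436th. Hsp90aa1 (675th), Hspd1 (2473rd), Hspa5 (4174th) and Hspe1 (7767th) followed. On this measure a gene that did not vary would score 0.67, the spread of Hspa1a itself. That lies between the scores of Hspd1 and Hspa5, and the measure carries no test.

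Immediate early and stress genes, a list of 12, were read beside the trio. With MPA 10 of 11 that passed the filter lay lower, with a median of -0.41, and 5 of them had an unadjusted p under 0.05, where 49.5% of all genes lay below 0 and 2.55% were lower at that bound. The stress factor Atf3 gave -0.94 ± 0.16, the orphan receptor Nr4a1 -0.99 ± 0.25 and Jun -0.40 ± 0.14 (adjusted p = 0.646, 0.690 and 0.752, limma). With NET-A 9 of 12 lay higher, with a median of 0.35 and none at that bound, where 54.3% of all genes lay below 0. For the difference 9 of 11 lay lower, with a median of -0.69, 4 of them at an unadjusted p under 0.05. Of all genes, 48.6% lay below 0 for the difference and 2.43% were lower at that bound.

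The mean of this list, each gene centred on its experiment, was 0.43, 0.26, -0.01 and 0.19 on the placebo M arrays and -0.24, 0.11, -0.38 and -0.34 on the MPA arrays. It was 0.73, -0.17, -0.65 and -0.38 on placebo N and 0.17, -0.49, 0.36 and 0.43 on NET-A arrays. Placebo N replicate 3 was the lowest array for this list as well, but replicate 4 of that group was low for it and high for the trio. The part of these genes in the values of Hspa1a was not tested.

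**Figure D3:**
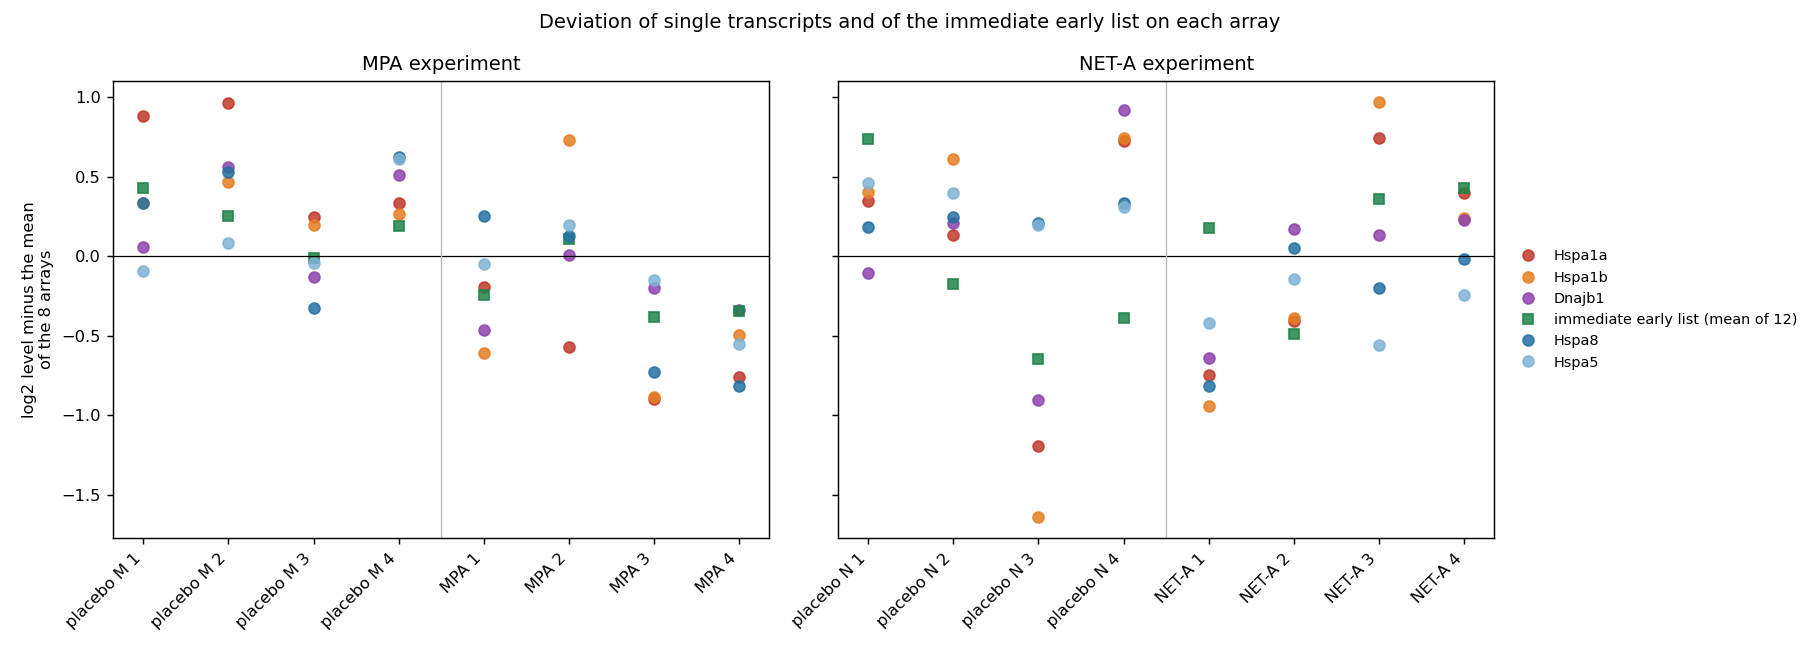
Log2 level minus the mean of the experiment's 8 arrays (vertical axis) on each array for Hspa1a, Hspa1b, Dnajb1, Hspa8 and Hspa5 (circles) and for the mean of the 12 immediate early genes (squares), in the MPA experiment (left) and the NET-A experiment (right). Hspa1a, Hspa1b and Dnajb1 are low together on placebo N replicate 3, where Hspa8 and Hspa5 lie above the experiment's mean.

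Beyond the 10 members, 80 other genes were read by role. They were chaperones, co-chaperones, heat shock factors, unfolded protein response genes and mitochondrial proteases, and none passed the adjusted test. With MPA 62 of the 76 that passed the filter lay lower, with a median of -0.14 and 7 lower at an unadjusted p under 0.05. With NET-A 49 of 80 lay lower, with a median of -0.027, 6 lower and 1 higher at that bound. For the difference 47 of 76 lay lower, with a median of -0.076. Of all genes tested, 49.5% lay below 0 with MPA and 2.55% were lower at that bound, 54.3% and 3.66% with NET-A, where 2.51% were higher, and 48.6% lay below 0 for the difference.

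Partners of cytosolic HSP70 also lay mostly lower in the MPA experiment. Of 16 J-domain and exchange factor genes 12 lay lower with MPA, with a median of -0.12, and 3 did so at an unadjusted p under 0.05, where 49.5% of all genes lay below 0 and 2.55% were lower at that bound. These were Dnaja1 (-0.86 ± 0.25), whose groups did not overlap, Dnajb4 (-0.77 ± 0.30) and Bag3 (-0.72 ± 0.30). Of all genes, 1.51% were lower with MPA without overlap of the groups. With NET-A 11 of the 16 lay higher, with a median of 0.047, and Dnajb5 gave 0.38 ± 0.22. The difference for Dnajb4 was -1.17 ± 0.50 (adjusted p = 0.687, limma). Among 7 HSP70 and HSP110 relatives that passed the filter, 6 lay lower with MPA, with a median of -0.050, and Hspa13 gave -0.64 ± 0.24.

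Of 10 HSP90 relatives and co-chaperones all lay lower with MPA, with a median of -0.14. Fkbp5, an HSP90 co-chaperone that glucocorticoids induce, gave -0.89 ± 0.39, Chordc1 -0.60 ± 0.28 and Ptges3, the p23 co-chaperone, -0.36 ± 0.21. With NET-A 7 of 10 lay lower, with a median of -0.11. Stip1, which bridges HSP70 and HSP90, gave -0.33 ± 0.14, Ahsa1, an activator of HSP90, -0.22 ± 0.11, and Fkbp5 0.95 ± 0.76. The CCT chaperonin, which folds actin and tubulin, lay lower for 8 of 8 subunits with MPA, with a median of -0.30, and for 6 of 8 with NET-A, with a median of -0.034. Cct3 gave -0.47 ± 0.16, Cct4 -0.39 ± 0.17 and Cct8 -0.41 ± 0.19 with MPA. Of all genes, 49.5% lay below 0 with MPA and 54.3% with NET-A. Of both lists only Fkbp5 and Cct3 had an unadjusted p under 0.05 with MPA, where 2.55% of all genes were lower. With NET-A only Stip1 did, where 3.66% of all genes were lower.

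The endoplasmic reticulum list, to which Hspa5 belongs by place, had 21 other genes. With NET-A 20 of them lay lower, with a median of -0.22, and 5 had an unadjusted p under 0.05, where 54.3% of all genes lay below 0 and 3.66% were lower at that bound. Manf, a secreted protein of the reticulum, gave -0.55 ± 0.11, Creld2 -0.67 ± 0.13 and the J-protein binding partner Sdf2l1 -0.78 ± 0.22 (adjusted p = 0.592, 0.592 and 0.631, limma). The groups did not overlap, in the lower direction, for Manf, Creld2, Hyou1 and Pdia6, where this held for 2.30% of all genes. With MPA 17 of 21 lay lower, with a median of -0.19, where 49.5% of all genes lay below 0. The lectin chaperone Canx (-0.40 ± 0.14) was the 1 gene at that bound, where 2.55% of all genes were lower. Its groups did not overlap, in the lower direction, where this held for 1.51% of all genes. The difference had 14 of 21 higher and a median of 0.10, with none at that bound.

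Small heat shock proteins other than Hspb1 lay lower for 4 of 5 with MPA and 3 of 6 with NET-A. Of all genes, 49.5% and 54.3% lay below 0, in that order. Cryab gave -0.31 ± 0.17 with MPA, and Hspb7, a muscle protein, 0.63 ± 0.25 with NET-A. The mitochondrial list of 8 had medians of -0.010 and 0.044, with none at an unadjusted p under 0.05. Of the heat shock factors, Hsf1, the main switch of the response, gave -0.13 ± 0.44 with MPA and -0.021 ± 0.14 with NET-A. Hsf2, well above background on 2 of 4 placebo N arrays and all 4 NET-A arrays, gave 1.16 ± 0.51 (adjusted p = 0.806, limma).

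**Figure D4:**
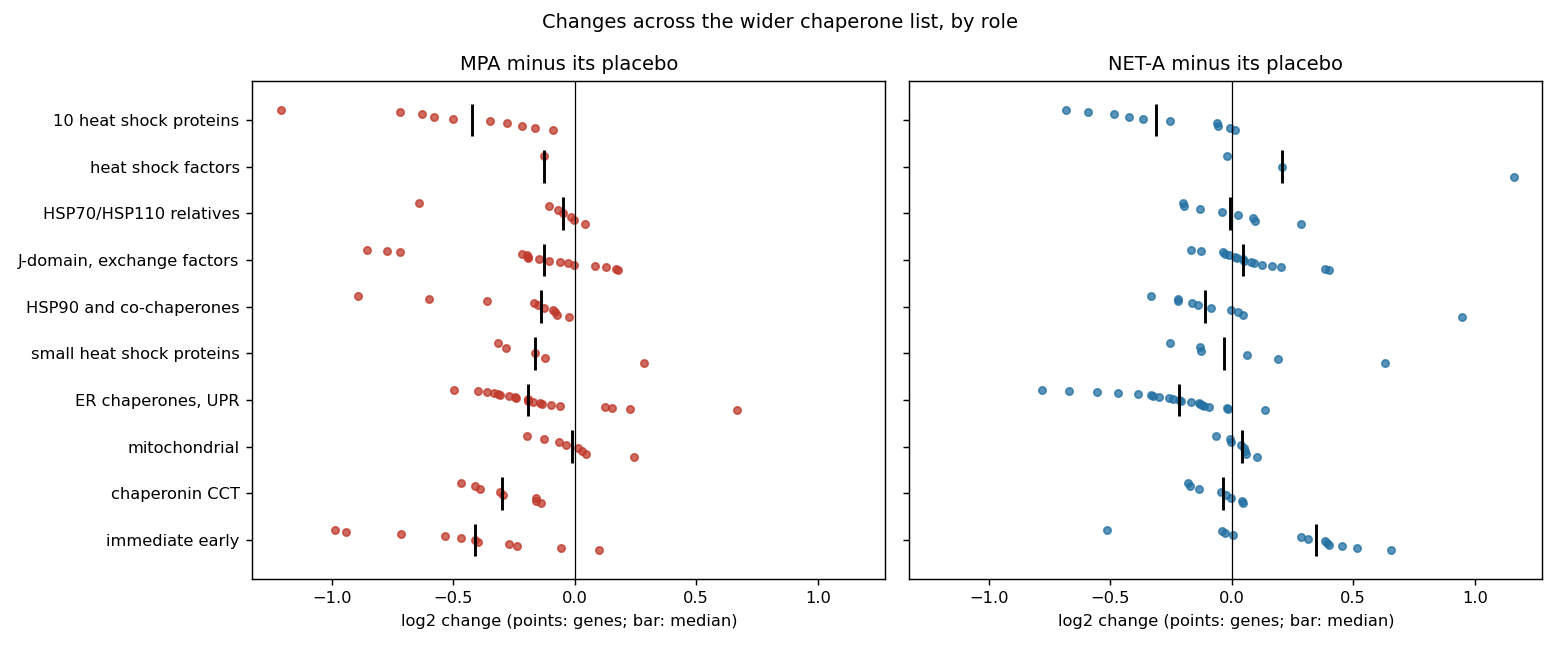
Log2 difference from the own placebo group (horizontal axis) for the 10 members and for the other chaperone and related genes by role. MPA is left and NET-A right, with the immediate early genes at the bottom. Points are genes that passed the filter and bars are medians. The CCT subunits lie below 0 with MPA (median -0.30), the endoplasmic reticulum list lies mostly below 0 with NET-A (median -0.22), and 10 of 11 immediate early genes lie below 0 with MPA and 9 of 12 above it with NET-A.

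Markers of other cells also differed between the groups, and their part in the chaperone values was not tested. With MPA macrophage markers lay lower for 7 of 7, with a median of -0.56, and platelet markers higher for 8 of 8, with a median of 0.76. Neutrophil markers lay higher for 5 of 5 that passed the filter, with a median of 2.56, and erythroid ones for 7 of 7, with a median of 0.78. With NET-A the medians were -0.66 for macrophage (7 of 7 lower), 1.99 for platelet (8 of 8 higher), 0.94 for neutrophil (6 of 7 higher) and 1.51 for erythroid markers (7 of 8 higher). Smooth muscle markers had medians of 0.018 with MPA and -0.019 with NET-A.

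The mean of the macrophage list, centred on each experiment, ranged from -0.15 to 0.79 in placebo M and from -0.50 to -0.03 with MPA. It ranged from -0.18 to 1.34 in placebo N and from -0.45 to -0.03 with NET-A. Platelet means ranged from -0.72 to -0.06, from -0.11 to 1.06, from -1.61 to -0.15 and from 0.04 to 1.55 in the same order of groups. The erythroid means ran from -1.09 to 0.55, -0.26 to 0.94, -1.15 to -0.26 and 0.11 to 1.22, and the neutrophil means from -1.87 to 0.13, -0.27 to 2.32, -0.86 to 0.27 and -0.31 to 1.37. All 7 macrophage markers were well above background on all arrays, whereas the neutrophil markers Mmp8 and Stfa2l1 were so on no array of placebo M and placebo N, respectively.

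Skeletal muscle markers, which were uneven between arrays, had a mean of 4.95 above the experiment on placebo M replicate 3 and from -1.48 to 0.80 on the other 7 arrays of the MPA experiment. Myh1, Myh4, Tnnt3 and Ckm were not well above background on any MPA array. In the NET-A experiment the mean ran from -0.83 to -0.39 with placebo and from -0.80 to 1.27 with NET-A. Without placebo M replicate 3 the median MPA difference of the members was -0.56, and that of Hspa1a was -1.33. At an unadjusted p under 0.05, 4 members were lower in that fit, against 3.20% of all genes. The groups of Hspa1a, Hsph1, Hspa8 and Dnajb1 did not overlap there. Fewer arrays make such a gap easier, and its share over all genes was not counted for that fit.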

How the data were processed

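Per the file headers, the arrays were one-colour Agilent designs of 45018 spots annotated on mm9, whose spot intensity came from Feature Extraction 10.7.1.1 (MPA experiment) or 11.0.1.1 (NET-A experiment). How the authors made the log2 values of their deposited series table is not stated; its columns (medians from -0.027 to 0.015) correlated by 0.988 to 1.00 with quantile-normalized, probe-centred array values, so its scale, centring and direction are inferred. From the processed intensity, log2 was taken and each array's 75th percentile subtracted. Outlier flags removed 1802 probe values. Of 41174 probes, 26690 were matched to RefSeq by accession and 3169 got a newer symbol. A gene took its brightest probe and was kept if well above background on at least 4 of 8 arrays. Groups were compared with limma 3.58.1 in R 4.3.3 (lmFit and eBayes, two-sided, p adjusted by Benjamini-Hochberg with 0.05 as threshold), in each experiment alone, and over 16 arrays for the difference of the responses. The fits were tested on simulated data. Alternatives covered background correction (normexp, offset 50), scaling, filter, flags, probes, weights, series table, slide, replicate number and left-out arrays. Normexp used the mean spot signal in the MPA experiment and the median spot signal in the NET-A experiment. The members and lists were chosen with earlier results of these data known. All members are named, and from each other list at most the 3 genes with the smallest p per comparison. Myh1, Myh4, Tnnt3, Ckm, Mmp8 and Stfa2l1, below background in a group, are named outside this rule and were chosen after their values were seen. Hyou1 and Pdia6 are likewise outside it, named because their groups did not overlap with NET-A. Beside Hspa1a, the genes of nearest pattern are named; one of them is not reported here.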

Additional observations from a re-analysis of the deposited data

Results flagged for a closer look

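Among 40 sets of 4 arrays (10 members in 4 groups), 3 had an array far from the other 3 by Dixon's criterion; chance alone marks about 1 in 20 sets. Hspa1b read 0.53 on placebo N replicate 3, where the others read 2.57 to 2.91. Dnajb1 read 3.41 on NET-A replicate 1, where the others read 4.18 to 4.28. Hspd1 read 4.92 on NET-A replicate 2, where the others read 4.12 to 4.25. On that array the mean of the brown adipocyte markers was 1.21, against -0.80 to -0.24 on the other NET-A arrays, and that of the endothelial markers 0.63, against -0.50 to 0.10, and their part in the value was not tested.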

How the results depend on the processing

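No member passed the adjusted threshold under any alternative, and the MPA differences of Hspa1a (-1.54 to -1.09) and Hsph1 (-1.08 to -0.58) and the NET-A differences of Hsph1 (-0.69 to -0.50) and Hspa5 (-0.75 to -0.43) kept their sign in each. Over all genes, the count called with MPA was 2 with slide as a block and 3 with all 16 arrays in one fit, and for the difference 1 with the replicate block and from 0 to 1 without 1 array (1 without NET-A replicate 1). Whether the replicate numbers pair the samples was not settled. Deviations of same-numbered arrays correlated by -0.23 to 0.23 with MPA and by -0.33 to 0.33 with NET-A. These values were not compared with those of arrays of unlike number, so they cannot decide it. The members' median was -0.52 for the difference after normexp and -0.080 for NET-A within slide 5. Members lower at an unadjusted p under 0.05 numbered 8 with MPA after normexp, where 7.70% of all genes were lower at that bound. They numbered 2 with NET-A after normexp, with the array median or in the fit of all 16 arrays. The shares of all genes there were 1.42%, 1.82% and 3.12%, in that order. Normexp moved the median of all genes to -0.13 with NET-A, and array-median scaling moved it to -0.16 for the difference. The cause was not tested for any value here. Signs turned with MPA for Hspe1 (0.017 quantile, 0.011 series table, 0.25 within slide 2), Hspb1 (0.055) and Hspa5 (0.073) within slide 1, and Hspd1 (0.010) within slide 2. With NET-A they turned for Hspa1a (0.11 normexp, 0.011 quantile, 0.079 array median, 0.068 array weights, 0.010 series table, 0.23 within slide 5), Hspa1b (0.063 normexp, 0.027 array median, 0.37 within slide 5), Dnajb1 (0.11 normexp, 0.029 array median, 0.014 array weights, 0.19 within slide 5), Hspd1 (-0.038 array weights) and Hspe1 (0.059 within slide 5). For the difference they turned after normexp for Hsp90aa1 (-0.48), Hspb1 (-0.36), Hspa5 (-0.24) and Hspe1 (-0.44), and for Hsp90aa1 with the array median (-0.15) and array weights (-0.069). Leaving out 1 array gave Hspe1 -0.34 to 0.12 with MPA. With NET-A it gave Hspa1a -0.41 to 0.24, Hspa1b -0.62 to 0.24, Dnajb1 -0.37 to 0.24 and Hspd1 -0.17 to 0.095. For the difference it gave Hsp90aa1 -0.18 to 0.18, Hspe1 -0.086 to 0.44, Hspa8 -0.30 to 0.082, Hsph1 -0.35 to 0.012 and Hspd1 -0.30 to 0.0092.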
